A study of Mus musculus with 4 samples.

Results

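Transcription regulators, 10 in all, that govern the basal state of the mammary epithelium and epithelial-mesenchymal transition (EMT) were followed in mouse ErbB2-driven mammary tumour cells exposed to the EZH2 inhibitor GSK126. The members were taken by gene symbol: Snai1, Snai2, Zeb1, Zeb2, Twist1, Twist2, Trp63, Id4, Sox9 and Sox10. Each is read from a probe set that the array annotation assigns to that gene alone, which left 9 of the 10 measured among 22180 named genes. Zeb2, a zinc finger repressor related to Zeb1, was covered only by 2 probe sets that carry another gene's symbol as well, and no value is given for it. None of the 9 factors passed the test across all genes. Snai2 was higher and Id4 was lower in both GSK126 arrays than in both DMSO arrays. Zeb1 and Twist1 also separated the groups on the higher side and Twist2 on the lower, and 40.1% of all genes separated them. Trp63 and Zeb1 lay near background in both groups.

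The cells were lines grown from mammary tumours of female FVB mice carrying MMTV-NIC, a transgene in which a mammary-directed viral promoter drives activated ErbB2 and, from the same transcript, Cre recombinase. Cells of both groups carry this transgene and were kept in the same medium with serum, EGF, insulin, hydrocortisone and pituitary extract. The DMSO group (n = 2 arrays) received the vehicle and the GSK126 group (n = 2 arrays) received 2 µM of the inhibitor, each for 96 h. GSK126 blocks EZH2, the enzyme that trimethylates histone H3 at lysine 27. The labels give neither the age of the mice nor the number of lines, and they do not say whether arrays of a group came from separate cultures. The p-values therefore reflect only spread between arrays, possibly of technical origin. The fit estimates that spread partly from other genes of similar level.

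EMT is the programme by which epithelial cells loosen their junctions and gain motile, mesenchymal features. Factors of the Snail, Zeb and Twist families drive it mainly by binding short E-box elements and repressing junction genes such as the E-cadherin gene Cdh1. In the mammary gland, Trp63 marks and maintains the basal layer, Snai2 and Sox9 act in stem and progenitor cells, Sox10 is found in progenitor and neural crest-like states, and Id4 restrains E-protein factors in basal cells. Many such developmental regulators have CpG-rich promoters, the kind of sequence at which Polycomb repressive complex 2, the complex that holds EZH2, commonly acts.

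Promoter sequence was at hand in the RefSeq table (build GRCm38.p6) for 5 of the 10 factors: Snai1, Zeb2, Twist1, Twist2 and Id4. The 250 bases before the annotated start held 35 CpG dinucleotides in Id4, 27 in Snai1, 23 in Twist2 and 18 in Twist1, against a median of 6 over all 32851 promoter windows of that table. As many as the 35 of Id4 were found in 3.0% of all windows, and as many as the 18 of Twist1 in 21.7%. The 4 annotated starts of Zeb2 held 6 to 14. The E-box CACCTG, which Snail and Zeb proteins can bind and whose reverse complement is CAGGTG, was searched on both strands. It was found in 1 of these windows, that of Snai1, where it begins 126 bases before the start, and in 17.2% of all windows. The windows of Id4 (chr13:48260866-48261115, plus strand, CpG dinucleotides in capitals) and Snai1 (chr2:167537945-167538194, plus strand, E-box in capitals) are shown because they hold the densest CpG content and the only E-box match among the measured factors with a window.
Id4: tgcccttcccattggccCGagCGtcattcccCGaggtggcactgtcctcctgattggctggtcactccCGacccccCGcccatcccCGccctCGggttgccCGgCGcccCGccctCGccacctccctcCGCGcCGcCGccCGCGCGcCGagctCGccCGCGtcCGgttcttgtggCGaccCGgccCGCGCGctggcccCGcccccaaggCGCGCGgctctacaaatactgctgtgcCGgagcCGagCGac
Snai1: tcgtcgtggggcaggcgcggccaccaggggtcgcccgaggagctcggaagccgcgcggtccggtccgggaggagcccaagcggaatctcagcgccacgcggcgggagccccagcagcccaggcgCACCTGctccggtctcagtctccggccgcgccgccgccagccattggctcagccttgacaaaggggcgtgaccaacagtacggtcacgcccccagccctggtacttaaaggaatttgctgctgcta

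The values are log2 expression values from robust multi-array averaging, and differences are GSK126 minus DMSO on that scale. The array medians ran from 4.73 to 4.79, and pairs of arrays correlated at 0.981 to 0.988 over 41345 probe sets, with GSK126 replicate 2 lowest against every other array. The cells showed the epithelial identity of their label: Epcam, Cdh1, Krt8 and Krt18 lay between 10.44 and 11.71 in every array. Krt14, a keratin of the basal layer, lay between 5.30 and 6.16. Across all genes, 96 of 22180 (0.433%) had an adjusted p under 0.05 in limma, 58 higher and 38 lower, a split that became 55 higher and 62 lower when each array was centred on its median. A factor is described as near background where its group mean was under 4.77, a limit set at the 40th percentile of the mean levels of all genes. The 95th percentile of 1390 olfactory and vomeronasal receptor genes, which mammary cells are not known to use, was 4.89 and served as a further yardstick. Probe sets differ in how brightly they hybridise, so the factors are not ranked against each other by level.

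Among the 9 measured factors, limma called 0 higher and 0 lower at an adjusted p under 0.05. At an unadjusted p under 0.05 there was 1 higher factor, Snai2, and 1 lower, Id4, while 10.6% of all genes met that limit (4.64% higher and 5.93% lower). The GSK126 and DMSO arrays did not overlap for 5 factors, Snai2, Zeb1 and Twist1 on the higher side and Id4 and Twist2 on the lower. That separation held for 40.1% of all genes. The median difference of the 9 factors was -0.10, against -0.01 over all genes, and the differences ran from -0.47 for Twist2 to 0.56 for Snai2. An exact permutation test on 2 against 2 arrays cannot give a two-sided p below 0.333, so the fit across all genes is the test used.

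**Figure D1:**
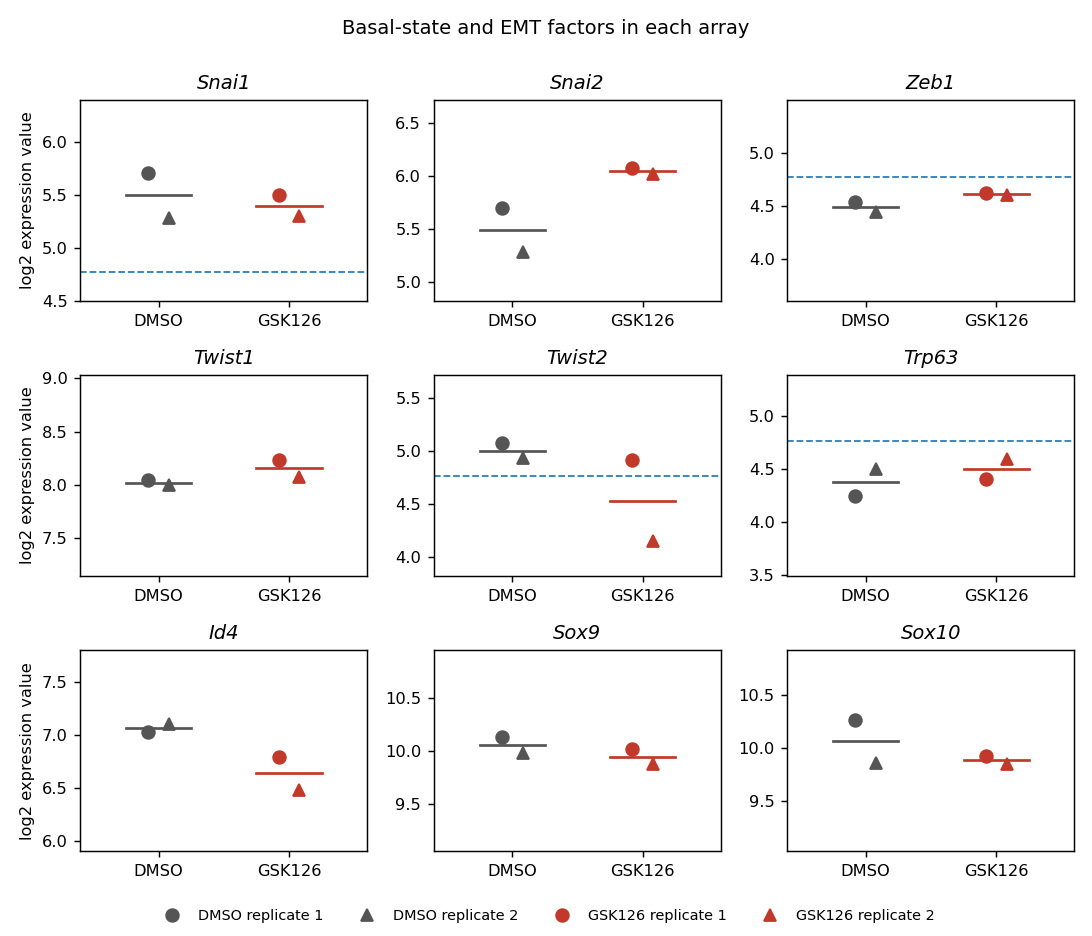
Log2 expression value of each measured factor in each array (vertical axis, the same span of log2 units in every panel but a different centre), for DMSO in grey and GSK126 in red; circles are replicate 1, triangles replicate 2, and bars the group means. The dashed line is the background limit of 4.77, drawn where it falls within the panel. Zeb1 and Trp63 lie below it in all 4 arrays. Snai2, Zeb1 and Twist1 separate the groups on the higher side, and Id4 and Twist2 on the lower. Such separation held for 40.1% of all genes.

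Snail family members differed in how their arrays fell. Snai2 (Slug), a zinc finger repressor of epithelial genes and a factor of mammary basal and stem cells, was at 5.69 and 5.28 in the DMSO arrays and at 6.07 and 6.02 in the GSK126 arrays. Both treated arrays were above both controls, and the controls were the more scattered pair. The difference was 0.56 (SE 0.16, 95% interval 0.18 to 0.94), a 1.47-fold higher level, with an unadjusted p of 0.00942 and an adjusted p of 0.299 in limma. Its size rested on the controls: it was 0.77 without DMSO replicate 1 and 0.35 without DMSO replicate 2, where the unadjusted p in limma was 0.0687.

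Snai1, the founding member of the family and an early inducer of EMT, was at 5.70 and 5.28 with DMSO and at 5.49 and 5.30 with GSK126. The treated values lay within the range of the controls. The difference was -0.10 (95% interval -0.51 to 0.31, adjusted p = 0.908 in limma), and it turned to 0.11 without DMSO replicate 1 and was -0.31 without DMSO replicate 2. The interval leaves room for changes of more than 0.3 in either direction. Snai3, the least studied relative, differed by 0.08 (SE 0.14). Whether Snai2 responded differently from Snai1 was not tested.

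Zeb1, a zinc finger repressor that sustains the mesenchymal state, was at 4.53 and 4.44 with DMSO and at 4.62 and 4.60 with GSK126. All 4 values were below the background limit. Although the groups did not overlap, the difference of 0.12 (95% interval -0.23 to 0.47, adjusted p = 0.845 in limma) is that of a dim probe set, whose size is uncertain. It was 0.07 with centred arrays or after quantile normalization, and 0.08 without DMSO replicate 2.

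The basic helix-loop-helix factors Twist1 and Twist2 pair with E-proteins to act on E-boxes. Twist1, which promotes invasion in mammary tumour models, was well above background, at 8.04 and 7.995 with DMSO and at 8.23 and 8.07 with GSK126. Both treated arrays were slightly above both controls, with GSK126 replicate 2 close to them. The difference was 0.13 (SE 0.10, 95% interval -0.09 to 0.36, adjusted p = 0.678 in limma). It was 0.05 without GSK126 replicate 1, 0.21 without GSK126 replicate 2 and 0.08 with centred arrays.

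Twist2, its close relative, was at 5.08 and 4.93 with DMSO and at 4.91 and 4.16 with GSK126. GSK126 replicate 1 lay just under the controls and replicate 2 was far lower. The group mean of 4.54 thus fell below the background limit while the DMSO mean of 5.01 was above it. The mean over all 4 arrays was under the receptor yardstick of 4.89, and DMSO replicate 2 and GSK126 replicate 1 were close to that yardstick. The difference was -0.47 (SE 0.24, 95% interval -1.04 to 0.10, adjusted p = 0.553 in limma). It was -0.09 without GSK126 replicate 2 and -0.85 without GSK126 replicate 1. Sox8 showed the same pair of treated values, one near the controls and replicate 2 well below, as given with its family.

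Trp63 encodes p63, the master factor of basal and stratified epithelium. It was at 4.25 and 4.51 with DMSO and at 4.41 and 4.60 with GSK126, below both yardsticks in every array. The groups overlapped, and the difference was 0.12 (SE 0.17, 95% interval -0.28 to 0.52, adjusted p = 0.872 in limma), which became -0.01 without DMSO replicate 1 and 0.25 without DMSO replicate 2. Its relative Trp73 lay close to the limit, with a difference of -0.07 (SE 0.16).

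Of the genes linked to p63 in basal epithelium, 22 of 25 listed were measured and limma called 0 of them, with 6 higher and 2 lower before adjustment (p under 0.05), limits met by 4.64% and 5.93% of all genes. The median difference was 0.09 against -0.01 over all genes. In both groups 4 members were near background, as were 8487 of all 22180 genes. Fgfr2, a receptor for fibroblast growth factors, was at 6.65 and 6.47 with DMSO and at 7.12 and 7.15 with GSK126 (difference 0.58, SE 0.11, adjusted p = 0.107 in limma). The Notch ligand gene Jag1 differed by 0.31. In the other direction, Krt14 differed by -0.51 (SE 0.18, adjusted p = 0.384 in limma), or -0.30 without DMSO replicate 2, and the laminin receptor gene Itga6, a surface marker of basal cells, by -0.28.

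Id4 is a helix-loop-helix protein without a DNA-binding region that holds E-proteins inactive, and it marks mammary basal cells. It was at 7.03 and 7.10 with DMSO and at 6.79 and 6.48 with GSK126. The controls agreed closely and both treated arrays were below them, replicate 2 the lower. The difference was -0.43 (SE 0.13, 95% interval -0.73 to -0.13), a level 1.35-fold higher in DMSO, with an unadjusted p of 0.0111 and an adjusted p of 0.312 in limma. It was -0.27 without GSK126 replicate 2 (unadjusted p = 0.080 in limma) and -0.39 without DMSO replicate 2 (unadjusted p = 0.0620 in limma).

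The other Id genes, which encode inhibitors of the same kind and respond to BMP signals, did not all lie on one side. Id2 was at 9.82 and 9.90 with DMSO and at 9.56 and 9.63 with GSK126 (difference -0.27, SE 0.08, adjusted p = 0.334 in limma). Id1 differed by -0.21 (SE 0.09), again with both treated arrays below both controls. Id3 differed by 0.15 with overlapping groups and turned to -0.02 without DMSO replicate 1.

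The E-proteins that Id factors sequester and Twist factors bind were measured for 3 of 3 genes, and limma called 0. There were 0 at an unadjusted p under 0.05 in limma, against 10.6% of all genes. Tcf3, which encodes E2A, was at 8.89 and 8.45 with DMSO and at 8.39 and 8.31 with GSK126. Its difference of -0.32 was -0.10 without DMSO replicate 1 and -0.54 without DMSO replicate 2. Tcf4 differed by -0.07 (-0.13 with centred arrays and -0.03 after quantile normalization), and Tcf12 by -0.01, a value that turned to 0.02 after quantile normalization.

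Sox9 and Sox10 belong to the SoxE group of HMG-box factors. Sox9, a factor of luminal progenitors and mammary stem cells, was at 10.13 and 9.99 with DMSO and at 10.02 and 9.88 with GSK126. Each treated value lay close to a control and the groups overlapped. The difference was -0.11 (SE 0.09, 95% interval -0.33 to 0.11, adjusted p = 0.740 in limma). It was -0.04 without DMSO replicate 1 or GSK126 replicate 2, and -0.18 without DMSO replicate 2 or GSK126 replicate 1.

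Sox10, known from neural crest and from mammary progenitors, was at 10.27 and 9.86 with DMSO and at 9.92 and 9.85 with GSK126. DMSO replicate 1 stood above the other 3 arrays, which were within 0.1 of each other. The difference of -0.18 (SE 0.13, 95% interval -0.48 to 0.13, adjusted p = 0.691 in limma) was 0.03 without DMSO replicate 1 and -0.38 without DMSO replicate 2.

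Sox8, the remaining SoxE gene, was at 6.46 and 6.30 with DMSO and at 6.23 and 5.51 with GSK126. Its difference of -0.51 (SE 0.22, adjusted p = 0.479 in limma) was -0.15 without GSK126 replicate 2 and -0.87 without GSK126 replicate 1.

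Genes linked to SoxE factors were measured for 14 of 16 listed, and limma called 0, with 1 higher and 5 lower before adjustment (p under 0.05), against 4.64% and 5.93% of all genes. The median difference was -0.15. Col9a3, a chain of cartilage collagen, was at 8.31 and 8.30 with DMSO and at 7.85 and 7.74 with GSK126 (difference -0.51, SE 0.09, adjusted p = 0.0869 in limma). The secreted protein gene Mia differed by -0.28 and the ErbB2 partner receptor gene Erbb3 by -0.27. Col11a1, another cartilage collagen chain, lay on the other side, at 0.47 (SE 0.13).

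**Figure D2:**
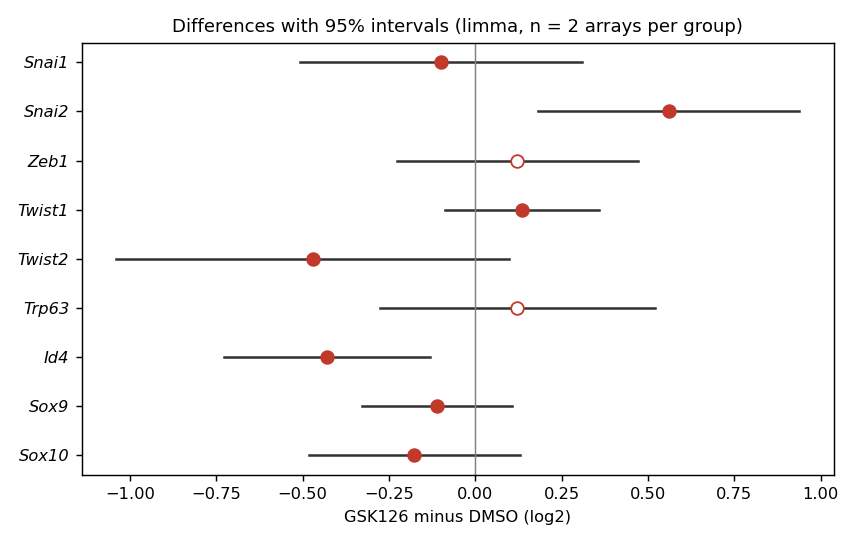
Difference of each measured factor, GSK126 minus DMSO in log2 units (horizontal axis), with its 95% interval from limma (line, n = 2 arrays per group); open circles mark factors near background in both groups. The intervals of Snai2 and Id4 do not reach 0 before adjustment over all genes, and that of Twist2 is the widest.

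Leaving out each array in turn gave the same sign in all 4 fits for Snai2, Zeb1, Twist1, Twist2, Id4 and Sox9, which is bound to happen for the 5 of them whose groups do not overlap. Snai1, Trp63 and Sox10 changed sign, in each case without DMSO replicate 1. The factors at an unadjusted p under 0.05 in limma were Snai2 and Id4 without DMSO replicate 1, Sox10 alone without DMSO replicate 2, Snai2, Id4 and Twist2 without GSK126 replicate 1, and Snai2 alone without GSK126 replicate 2. No factor had an adjusted p under 0.05 in any of these fits.

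**Figure D3:**
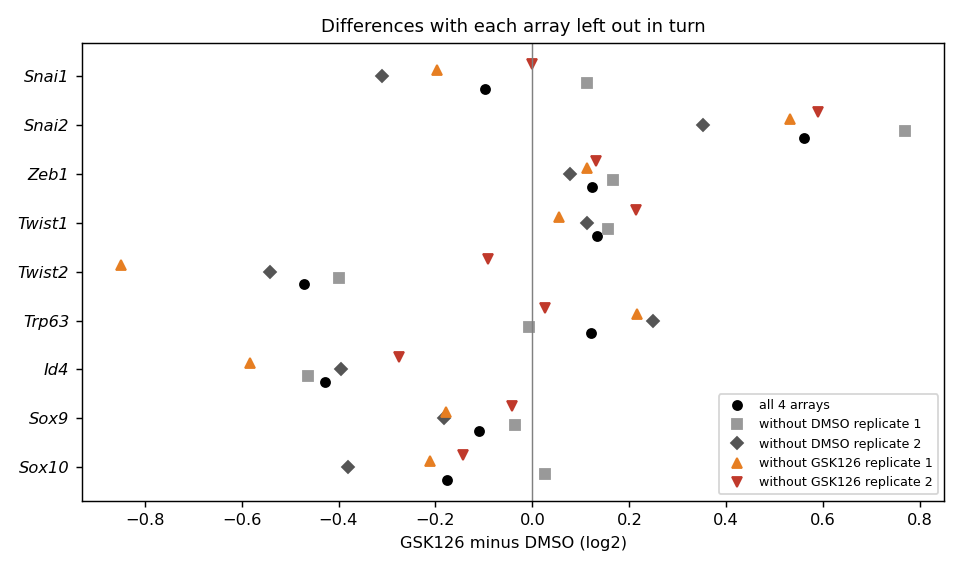
Difference of each measured factor in log2 units (horizontal axis) with all 4 arrays (black circles) and with each array left out in turn (other symbols). Twist2 runs from -0.85 to -0.09 depending on which GSK126 array is left out, and Sox10 from -0.38 to 0.03 depending on which DMSO array is.

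Other EMT-linked factors were measured for 13 of 15 listed, and limma called 0. Before adjustment (p under 0.05 in limma), 2 were higher and 0 lower, against 4.64% and 5.93% of all genes. Foxq1, a forkhead factor that promotes EMT, was at 8.29 and 8.12 with DMSO and at 8.72 and 8.56 with GSK126 (difference 0.44, SE 0.10, adjusted p = 0.205 in limma). That value depends on the probe set chosen, since the average of the Foxq1 probe sets gave 0.15 (unadjusted p = 0.250 in limma). Klf8, a zinc finger repressor of Cdh1, differed by 0.41 (SE 0.17), Foxc1 by 0.20 and the homeobox gene Prrx1 by 0.21. Klf8 was 0.21 without DMSO replicate 2, Prrx1 0.11 without DMSO replicate 1 and Foxc1 0.13 without GSK126 replicate 1.

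Factors and splicing regulators that hold the epithelial state were all measured (14), with 0 called in limma. Before adjustment (p under 0.05 in limma), 1 was higher and 2 were lower, against 4.64% and 5.93% of all genes. Elf5, the alveolar progenitor factor, was at 9.98 and 9.52 with DMSO and at 9.36 and 9.38 with GSK126, a difference of -0.38 that was -0.14 without DMSO replicate 1 and -0.61 without DMSO replicate 2. Elf3 differed by -0.32 and Grhl2, which opposes Zeb1, by -0.21. Ovol1, a zinc finger repressor of EMT factors, differed by 0.43 (SE 0.17, adjusted p = 0.430 in limma). Ovol1 was 0.25 without GSK126 replicate 1 and Grhl2 -0.13 without DMSO replicate 2.

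Junction and surface genes that EMT factors repress were measured for 29 of 30 listed. Limma called 0 of them, with 3 higher and 3 lower before adjustment (p under 0.05), against 4.64% and 5.93% of all genes. The median difference was -0.06. Cdh1, the classical target of Snail, Zeb and Twist proteins, was at 10.76 and 10.93 with DMSO and at 10.85 and 10.66 with GSK126, a difference of -0.09 (95% interval -0.32 to 0.14). The tight junction genes Cldn1 and Cldn4 were higher by 0.46 (SE 0.08, adjusted p = 0.0825 in limma) and 0.39, and Cldn1 passed without dim genes (adjusted p = 0.0452). The tight junction scaffold gene Tjp3 differed by -0.31 and the membrane protease gene Prss8 by -0.28.

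Mesenchymal genes linked to EMT were measured for 27 of 30 listed, of which 3 rose and 24 did not pass, against 0.261% of all genes called higher. These lists were drawn up with earlier results of these data known, and the rise of Fn1, Lox and Axl was among them. Fn1, which encodes the matrix protein fibronectin, was at 5.44 and 5.32 with DMSO and at 6.82 and 6.48 with GSK126, a rise of 1.27 (SE 0.15, adjusted p = 0.0240 in limma). The collagen crosslinker gene Lox rose by 1.04 from a mean near background, and the receptor kinase gene Axl by 0.72 (adjusted p = 0.0467 and 0.0445 in limma). These 3 calls ended when any array was left out, without the intensity trend and when every probe set was tested on its own.

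At an unadjusted p under 0.05 in limma, 8 of the 27 mesenchymal genes were higher and 0 lower, against 4.64% and 5.93% of all genes. The 8 include Fn1, Lox and Axl, whose rise was known when the list was drawn up, so this count is not independent of these data. The median difference was 0.09 over the list. Cdh2, the gene of N-cadherin, was at 8.81 and 8.64 with DMSO and at 9.08 and 9.14 with GSK126 (difference 0.39, SE 0.09, adjusted p = 0.210 in limma). Fibroblast markers, some of which this list shares, had 0 of 10 called in limma, 3 higher and 0 lower before adjustment (p under 0.05), and a summed level (log2 of the summed linear values) of 8.34 and 8.38 with DMSO and 8.62 and 8.51 with GSK126. Of the fibroblast markers, 4 of 10 (Pdgfra, Dcn, Lum and Fap) had a DMSO mean near background, a share close to the 9006 of all 22180 genes. Postn, the gene of periostin, was among the other 6 markers (6.10 ± 0.31 and 6.70 ± 0.09, n = 2, adjusted p = 0.245 in limma). Its difference of 0.61 was the largest of the fibroblast markers, whose median difference was 0.09. Col1a1 and Dcn differed by -0.12 and -0.29, and the remaining markers lay on the higher side.

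Of the endothelial markers, 0 were called in limma and 0 had an unadjusted p under 0.05, against 0.433% and 10.6% of all genes. For 6 of 7 the DMSO mean was near background, as it was for 9006 of all 22180 genes. Among these 6, the means of Pecam1, Kdr and Eng went just over the limit. They were 4.58, 4.76 and 4.76 with DMSO and 4.87, 4.88 and 4.88 with GSK126. Tie1, Tek and Emcn stayed near background in both groups. Cdh5, the remaining marker, went the other way, from a mean of 4.78 to 4.52. The median difference of the endothelial markers was 0.04. Of the leukocyte markers, 6 of 9 were near background in DMSO, Ptprc among them. Limma called 1 of the 9, which was higher, against 0.261% of all genes called higher. The leukocyte gene called was Cd68, known from macrophage lysosomes. It was at 8.20 and 8.08 with DMSO and at 9.16 and 9.12 with GSK126 (adjusted p = 0.0100 in limma). Cd14, a coreceptor for bacterial lipopolysaccharide, had means of 10.57 and 10.67. The summed leukocyte level was 10.98 and 10.86 with DMSO and 11.15 and 11.22 with GSK126. This sum rests mainly on Cd14 and Cd68, the brightest markers of the list. The median difference of the leukocyte markers was -0.01. Cd79a, Cd3e, Adgre1, Itgam and Ptprc, all near background in both groups, differed by -0.39, -0.20, -0.16, -0.15 and -0.01. Csf1r and Lyz2 differed by 0.12 and 0.0046.

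Markers of Schwann cells, a cell type known for Sox10, were measured for 5 of 7 listed, and S100b and Pmp2 were near background in both groups. The myelin gene Mbp had means of 6.24 and 6.20, and Gfap had means of 4.94 and 5.18. Ncam1, an adhesion molecule found in several cell types, was the 1 called, against 0.261% of all genes called higher. It rose by 1.08 (adjusted p = 0.0284 in limma). The calls of Ncam1 and Cd68 ended when any array was left out, without the intensity trend and when every probe set was tested on its own. The part of other cell types in these results was not tested, and in bulk RNA fewer cells of a type cannot be told apart from less RNA per cell.

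The TGF-beta and BMP inputs, signals that induce EMT factors and Id genes, were measured for 30 of 30 listed, with 0 called higher and 1 called lower, against 0.171% of all genes called lower. Tgfb3 fell by 0.56 (SE 0.08, adjusted p = 0.0378 in limma), a call that ended when any array was left out, without the intensity trend and when every probe set was tested on its own. Tgfb2 was at 9.34 and 9.22 with DMSO and at 8.70 and 8.72 with GSK126 (difference -0.56, SE 0.09, adjusted p = 0.0506 in limma), and it passed without dim genes (adjusted p = 0.0263), with a robust prior (0.0496) and with centred arrays (0.0291). The BMP transducer gene Smad5 differed by -0.29 and Bambi, a decoy receptor of the family, by -0.33.

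Chromatin partners that Snail and Zeb proteins recruit were measured for 14 of 15 listed, with 0 called in limma. Before adjustment (p under 0.05 in limma), 0 were higher and 2 lower, against 4.64% and 5.93% of all genes. The corepressor genes Ctbp2 and Sin3a differed by -0.28 and -0.21, the histone demethylase gene Kdm1a by -0.24, and Ezh2, the drug target, by -0.19 (SE 0.09, adjusted p = 0.499 in limma). Kdm1a was -0.10 without GSK126 replicate 2 and -0.39 without GSK126 replicate 1. Ubiquitin ligases and kinases that set the stability of EMT factors were measured for 12 of 14 listed, with 0 called and 0 at an unadjusted p under 0.05 in limma. The ligase genes Btrc, Fbxw7, Fbxl14 and Wwp1 differed by 0.20, 0.15, -0.11 and 0.10. Fbxw7 was -0.002 without GSK126 replicate 1, and Fbxl14 was -0.01 without GSK126 replicate 2.

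**Figure D4:**
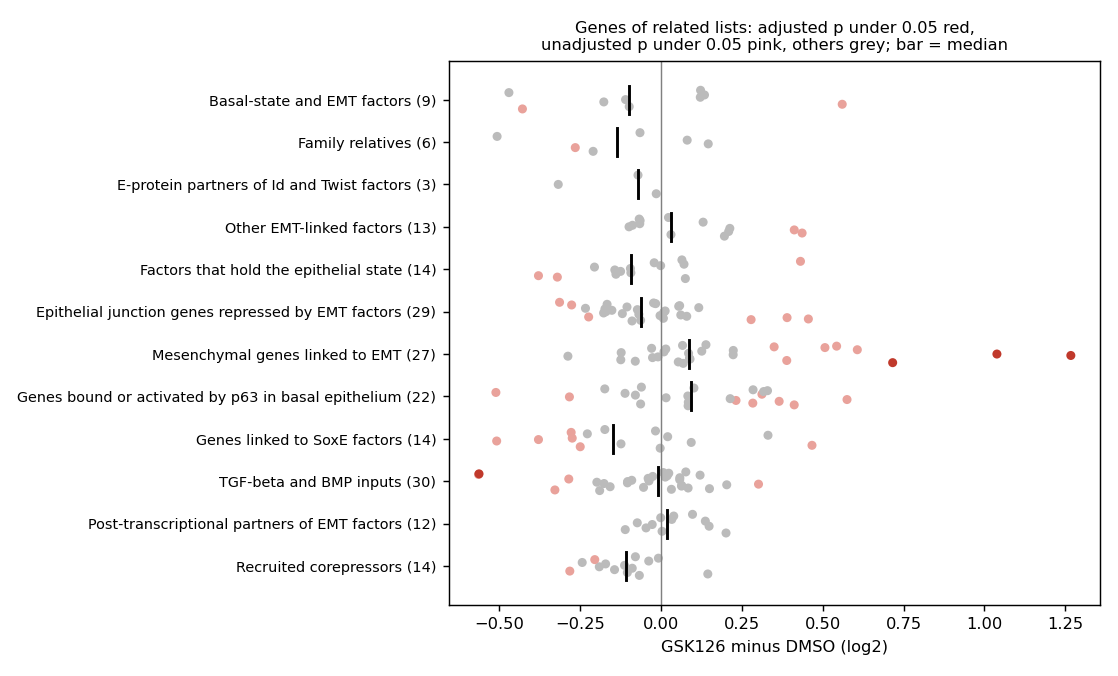
Difference of every measured gene, GSK126 minus DMSO in log2 units (horizontal axis), for the factors and for 11 related lists, with the number measured in parentheses; red points passed at an adjusted p under 0.05 in limma, pink points had an unadjusted p under 0.05, and bars are list medians. The red points are Fn1, Lox and Axl among mesenchymal genes and Tgfb3 among the signalling inputs.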

How the data were processed

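Total RNA was hybridised to single-channel Affymetrix mouse arrays, 2 per group. Sample titles gave the group and the replicate number. The deposited log2 expression values were made by the authors with the RMA method (robust multi-array averaging, core-exon analysis) in Expression Console, per the labels. Affymetrix Power Tools is also named, without a version, in the submitters' processing notes. Neither the centring nor the genome build of the annotation is stated in the labels. For arrays, their number limits the precision.

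Of 41345 probe sets, 23521 carried 1 gene symbol, 1814 several and 16010 none. RefSeq matched 23328 by Entrez identifier and changed 0 symbols. Each of 22180 genes was read from its probe set with the highest mean, a choice that applied to 1082 genes and to none of the 9 measured factors. GSK126 minus DMSO was fitted with limma 3.58.1 in R 4.3.3 (intensity trend, two-sided moderated test, Benjamini-Hochberg over all genes, threshold 0.05), with 2 residual and 5.57 prior degrees of freedom. The script was tested on simulated data, where it found 67% of changes of 1 log2 unit and 98.2% of changes of 2. Smaller changes, such as the 0.56 of Snai2, were not simulated. The members and lists were chosen with earlier results of these data known. The named genes are the 10 factors and, from each related list, up to 4 with the smallest p; other genes named (Cdh1, Snai3, Trp73 and marker genes) are family members, the classical target or cell markers of the lists, and Ncam1, Cd68, Postn and the other markers named were chosen after their values were seen. The labels give no pairing of arrays by replicate number, and the main fit used none. The differences between replicates correlated at -0.03 across genes between the groups, a value that cannot settle whether arrays were paired. Alternatives were the prior variance, a filter on dim genes, the handling of probe sets, centring, the replicate number as a block, quantile normalization and leaving out each array.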

Additional observations from a re-analysis of the deposited data

How the results depend on the processing

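The count of factors past the adjusted threshold was 0 in limma under all 12 alternatives, with 1 to 3 at an unadjusted p under 0.05. That range came from leaving out 1 array; the other 8 alternatives gave 2, Snai2 and Id4 among them with the replicate block too (0.56 and -0.43, adjusted p = 0.381 and 0.446). The count over all genes fell from 96 to 10 with the replicate block, to 0 to 4 with 1 array left out, and to 0 in limma without the intensity trend (1964 at an unadjusted p under 0.05) and when every probe set was tested on its own (2835 at it); it was 149 without dim genes. The block ended the calls of Fn1 (adjusted p = 0.0704), Lox (0.152), Axl (0.158), Tgfb3 (0.152), Ncam1 (0.103) and Cd68 (0.0614). The cause of these changes was not tested. With 1 array left out, values ran from -0.31 to 0.11 for Snai1, -0.0064 to 0.25 for Trp63, -0.38 to 0.0257 for Sox10, -0.0228 to 0.31 for Id3, -0.0460 to 0.0160 for Tcf12 and -0.00156 to 0.30 for Fbxw7. Tcf12 also turned to 0.0159 after quantile normalization. Zeb1 and Trp63 were not tested without dim genes. Where a lone array is left in a group, its spread is taken to be like that of the other. Signal near background limits what can be said of Zeb1, Trp63 and Twist2.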
